A study of Mus musculus with 64 samples.

Results

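The antidepressants mianserin and venlafaxine were compared directly with each other in the nucleus accumbens (NAc) and the prefrontal cortex (PFCx) of mice. The libraries were taken by their labels, as all that carry either drug name, and they numbered 16 of the 64 of the series, 4 per drug and tissue. The mice were adult C57BL/6N males aged 8 to 10 weeks that received a single intraperitoneal injection dissolved in saline, either 20 mg/kg of mianserin or 16 mg/kg of venlafaxine, and tissue was taken 2 h later. The doses differ, so every difference given here is between 1 dose of each drug at 1 time. The PFCx piece held the cingulate, prelimbic and infralimbic cortex and part of the dorsal peduncular cortex. The 4 saline libraries per tissue that the labels call set II belong to the same sample set as both drugs and entered the fits as well. Their levels are given beside those of the drugs for some genes only. Where they are not given, a difference between the drugs does not say which drug moved away from saline. The labels do not say that libraries are separate mice or that both tissues came from the same mouse, so p-values measure the spread between libraries.

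Mianserin is an antagonist of several receptors, among them the serotonin 5-HT2 receptors, the histamine H1 receptor and alpha-adrenergic receptors, and venlafaxine inhibits the transporters that take serotonin and noradrenaline back into nerve terminals. Receptor signals reach the nucleus through calcium, cyclic AMP and the MAP kinase cascade, which act on factors such as CREB, SRF and ELK1 at genes that need no new protein to be transcribed, the immediate early genes. The MAP kinase cascade is switched off by phosphatases that are themselves induced by it. A separate route runs through the glucocorticoid receptor, a nuclear receptor that binds DNA once corticosterone enters the cell and induces genes such as Sgk1, Tsc22d3 and Fkbp5. Both routes are known to be active in the forebrain after stress and after drugs that act on monoamines.

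Levels are given as FPKM (reads per base length of a transcript relative to all mapped reads of its library), summed over the transcripts of a gene, and differences as mianserin minus venlafaxine on the log2(FPKM + 1) scale, which understates the change of weakly expressed genes. A gene passed where limma's adjusted p (Benjamini-Hochberg over the 37555 genes tested) was under 0.05. In bulk tissue, fewer cells of a type and less RNA per cell cannot be told apart. The aligned bases behind the 16 libraries ranged from 1.83 to 2.79 gigabases and overlapped between the drugs in each tissue. The tissue labels held: the summed FPKM of 12 striatal projection neuron markers was 629.8 to 840.8 in the 8 NAc libraries and 48.7 to 57.3 in the 8 PFCx libraries. A single PFCx saline library, replicate 4, had a striatal sum of 127.3, and without it 25 genes passed between the drugs in the PFCx against 26 with it.

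Few genes separated the drugs within a tissue, and most of those that did were higher after mianserin. In the NAc, 20 genes were higher after mianserin (0.0533% of those tested) and 10 were lower (0.0266%). In the PFCx, 20 were higher (0.0533%) and 6 lower (0.016%), and 10 genes passed in both tissues (Sgk1, Txnip, Fos, Nr4a1, Cyr61, Csrnp1, Apold1, Tiparp, Gm37728 and Gm26945). With tissue as a factor, in a fit of the libraries of both tissues, 119 genes were higher (0.317%) and 114 lower (0.304%), and 195 of these 233 had passed in neither tissue alone. Of the 119, 117 had a positive difference in each tissue, and of the 114, 113 had a negative one. The calls rest on the mean of the same tissue differences, so this shared sign was largely set by the selection. Over all genes tested the median difference was near 0 in each comparison (NAc 0.0068, PFCx 0.0020, joined tissues 0.0047). The counts within a tissue were sensitive to single libraries: the 30 genes of the NAc became 13 without mianserin replicate 4 and 18 without mianserin replicate 3 or venlafaxine replicate 3, and the 26 of the PFCx became 12 without mianserin replicate 3 or venlafaxine replicate 2 and 15 without venlafaxine replicate 1. With the replicate numbers of the labels as a block, 19 genes passed in the NAc and 20 in the PFCx.

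**Figure D1:**
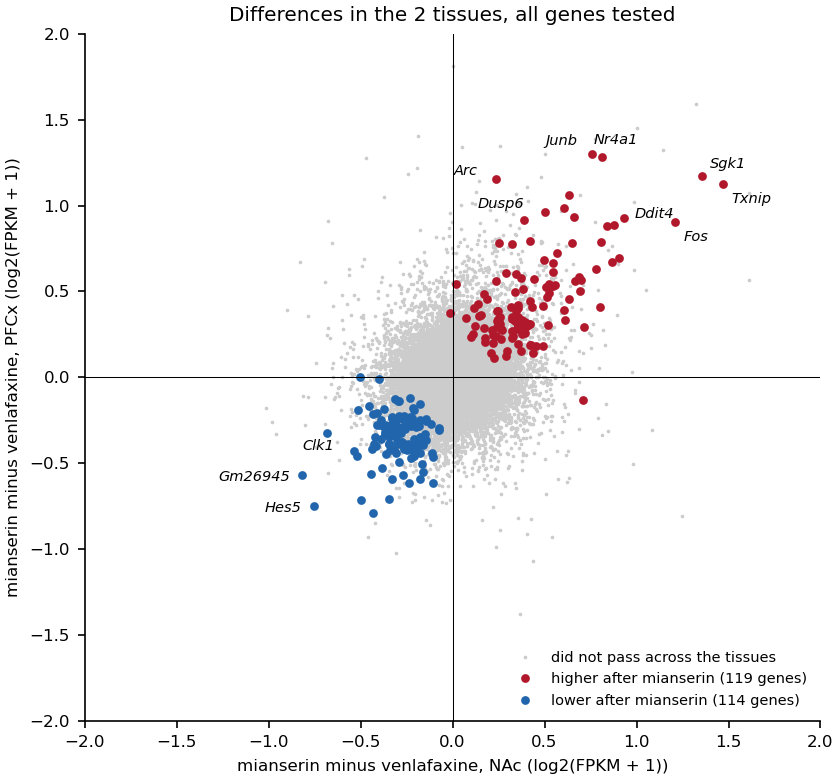
Difference between mianserin and venlafaxine (log2(FPKM + 1), mianserin minus venlafaxine) in the NAc on the x axis and in the PFCx on the y axis, 1 point per gene for the 37555 genes tested; red and blue points are the 119 and 114 genes that passed across the tissues. Among the genes that passed, Sgk1 and Txnip are the furthest right, Junb and Nr4a1 the furthest up, and Gm26945 and Hes5 are the furthest left.

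Sgk1, which encodes a kinase that controls ion channels and transporters and is a classic target of the glucocorticoid receptor, had the lowest adjusted p of all genes across the tissues. In the NAc (chr10:21882184-21999903, GRCm38, as the annotation places the gene) it stood at 54.9, 60.8, 65.2 and 70.7 FPKM in the mianserin libraries, in ascending order, and at 21.0, 24.5, 24.6 and 25.6 in the venlafaxine libraries. In the PFCx it was at 28.6, 32.5, 35.02 and 37.1 after mianserin and at 11.9, 13.9, 15.1 and 16.1 after venlafaxine. No mianserin library came near the venlafaxine range in either tissue, and the venlafaxine means lay close to those of saline set II (NAc 19.6, PFCx 14.03). The difference was 1.35 in the NAc (SE 0.09, limma adjusted p = 0.000134; 62.9 ± 6.73 against 23.95 ± 2.01, SD, n = 4 each, 2.63-fold; two-sided exact permutation p = 0.0286, the smallest that 4 against 4 libraries can give). In the PFCx it was 1.17 (SE 0.10, limma adjusted p = 0.00106), 33.3 ± 3.65 against 14.3 ± 1.81 or 2.33-fold, and across the tissues 1.26 (limma adjusted p = 4.14e-10).

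Sgk1 has 13 annotated transcripts, looked at after the gene's values had been seen, and they did not move alike. ENSMUST00000020145, the protein-coding form that starts at position 21994666 of chromosome 10, was at 14.2, 16.3, 20.2 and 22.1 FPKM after mianserin and 3.23, 3.45, 3.45 and 5.27 after venlafaxine in the NAc. This 4.72-fold difference of the means (18.2 against 3.85) passed (1.98, limma adjusted p = 0.00511), and in the PFCx the same transcript stood at 11.6 against 3.77 (1.43, limma adjusted p = 0.0473). The PFCx call of this transcript was lost in 10 of the 12 fits that left out a library, with an adjusted p of up to 0.165. ENSMUST00000120509, whose start at 21882184 lies far upstream, was at 5.71 against 5.17 in the NAc and 2.26 against 1.95 in the PFCx, with overlapping libraries (limma adjusted p across the tissues = 0.75). Cufflinks divides reads that isoforms share by likelihood, so the values of Sgk1 isoforms depend on each other.

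In the RefSeq promoter windows of GRCm38.p6 (250 bases before each annotated start), Sgk1 was 1 of only 3 genes of 27025 with a perfect glucocorticoid response element, searched as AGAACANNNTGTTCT, and 2 of those 3 are among the 14151 protein-coding genes tested that have a promoter in the table. The window is shown because Sgk1 had the lowest p and the motif is that of the receptor named above. It lies at chr10:21993681-21993735 on the plus strand, and the motif, in capitals, begins 189 bases before the start of an upstream Sgk1 transcript, ENSMUST00000092673, whose own level was low (0.703 FPKM after mianserin and 0.254 after venlafaxine in the NAc).
Sgk1, response element: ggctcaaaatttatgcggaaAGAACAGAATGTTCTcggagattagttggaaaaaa
A match of letters describes the sequence and does not show that the receptor is bound there.

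Txnip, which encodes a thioredoxin-binding protein that restrains glucose uptake, had the largest difference in the NAc among the genes that passed. Its FPKM was 13.1, 13.1, 14.4 and 15.2 after mianserin and 3.54, 3.75, 4.83 and 5.66 after venlafaxine in the NAc (chr3:96557957-96561883), and 10.6, 11.4, 11.6 and 12.3 against 4.59, 4.69, 4.77 and 4.83 in the PFCx. The groups were far apart in both tissues, and the saline means were 3.90 and 3.55. The difference was 1.47 in the NAc (SE 0.14, limma adjusted p = 0.00372, 3.14-fold) and 1.12 in the PFCx (SE 0.10, limma adjusted p = 0.00106, 2.43-fold). The gene-level calls of Sgk1 and Txnip held in each tissue under every alternative fit, filter and set of libraries, leaving out each library in turn included, while at an adjusted p under 0.001 Sgk1 in the NAc was the only gene to pass within a tissue.

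**Figure D2:**
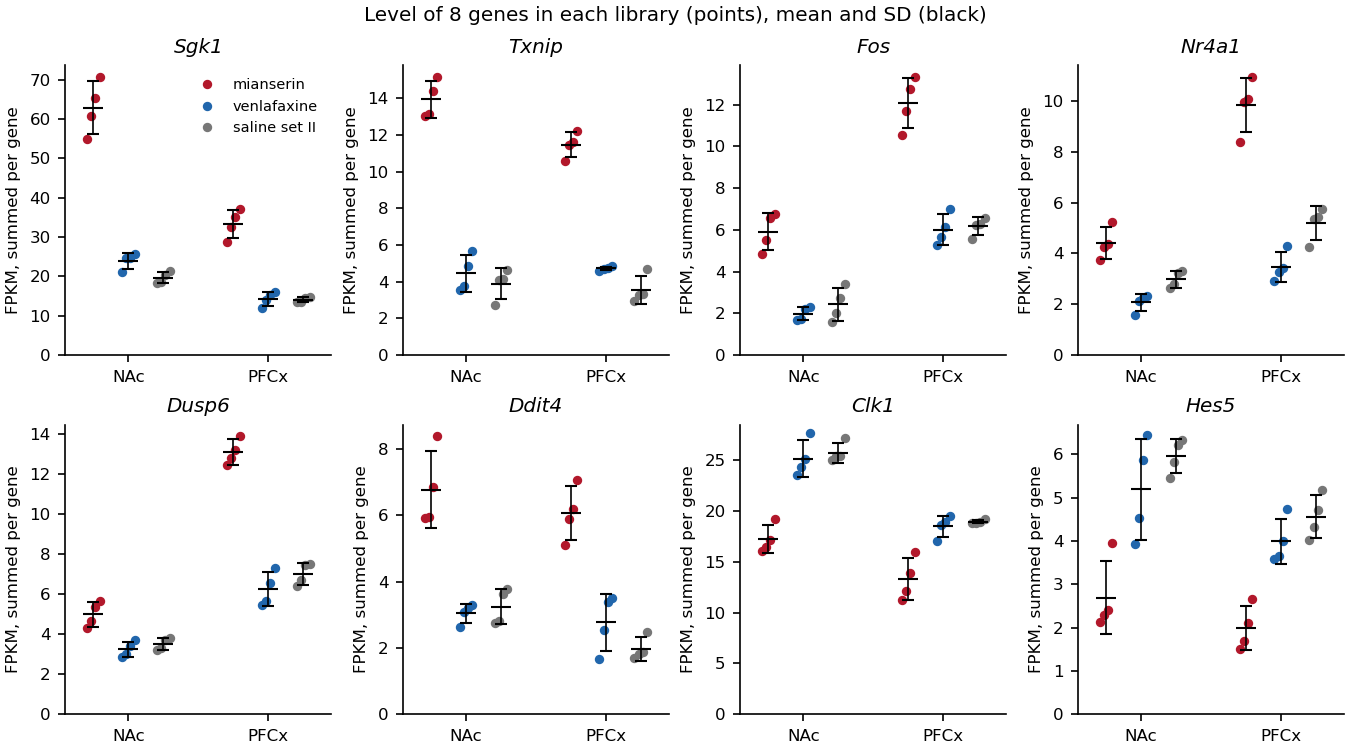
FPKM summed per gene (y axis, from 0) of Sgk1, Txnip, Fos, Nr4a1, Dusp6, Ddit4, Clk1 and Hes5 in the NAc and the PFCx; each point is a library after mianserin (red), venlafaxine (blue) or saline set II (grey), and black bars are the mean and SD of 4 libraries. For Sgk1, Txnip, Fos and Nr4a1 the mianserin points lie above all venlafaxine points in both tissues, for Clk1 they lie below, and for Hes5 they lie below in the PFCx and overlap in the NAc.

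Most of the 28 glucocorticoid-responsive genes had a positive difference, and fewer passed. Across the tissues 11 were higher after mianserin (Sgk1, Tsc22d3, Per1, Klf9, Nfkbia, Ddit4, Cdkn1a, Arrdc2, Errfi1, Cebpd and Dusp1) and 1 was lower (Tob1), 21 had a positive difference, and the list's median was 0.24 against 0.0047 over all genes. In the NAc 4 passed (Sgk1, Nfkbia, Ddit4 and Cebpd, median 0.32) and in the PFCx 2 (Sgk1 and Dusp1, median 0.21), all higher. Of all genes tested, 52.5% were positive across the tissues, 0.317% passed as higher and 0.304% as lower. Ddit4, which restrains the growth kinase mTORC1 (chr10:59949675-59951770), was at 5.92, 5.95, 6.85 and 8.40 FPKM after mianserin and 2.64, 3.08, 3.19 and 3.28 after venlafaxine in the NAc. Its groups did not overlap there (0.93, limma adjusted p = 0.0133), and in the PFCx its means were 6.07 against 2.77 (0.93, limma adjusted p = 0.0661). Nfkbia, the inhibitor that holds NF-kappaB in the cytoplasm, was at 4.88 against 2.40 in the NAc (0.81, limma adjusted p = 0.0407) and 5.11 against 2.52 in the PFCx (limma adjusted p = 0.0563).

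Members with smaller differences passed only when both tissues were joined. Tsc22d3, which encodes the glucocorticoid-induced leucine zipper protein, was at 14.5 against 9.62 FPKM in the NAc and 16.01 against 10.7 in the PFCx (0.54 across the tissues, limma adjusted p = 7.68e-05). Klf9, a transcription factor induced by glucocorticoids, was at 27.2 against 20.8 and 24.7 against 19.4 (0.36, limma adjusted p = 0.00107). Tob1, an antiproliferative protein, went the other way, with 3.82 against 5.46 in the NAc and 4.25 against 5.62 in the PFCx (-0.38, limma adjusted p = 0.00249). Fkbp5, the co-chaperone often read as a marker of glucocorticoid receptor activity, did not pass: its 4 NAc mianserin libraries lay above those of venlafaxine (means 7.67 against 5.92), and its difference across the tissues was 0.25 (limma adjusted p = 0.164). Cebpd (10 of 12 leave-outs, adjusted p up to 0.142) and Nfkbia (11 of 12, up to 0.128) lost their NAc calls without most of the single libraries, Dusp1 its PFCx call without mianserin replicate 3 or venlafaxine replicate 2 (up to 0.0634), and Per1 its call across the tissues in 3 of 24 leave-outs (up to 0.0537). Ddit4 lost its call in none.

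Immediate early genes were the list with the most calls. Across the tissues 17 of 34 were higher after mianserin and 0 lower (Fos, Fosb, Junb, Egr1, Egr2, Egr4, Nr4a1, Arc, Maff, Btg2, Csrnp1, Klf4, Klf10, Cyr61, Gadd45g, Trib1 and Apold1), 32 had a positive difference, and the median was 0.32. In the NAc 5 were higher (Fos, Nr4a1, Csrnp1, Cyr61 and Apold1, 28 positive, median 0.28) and in the PFCx 8 (Fos, Junb, Nr4a1, Arc, Csrnp1, Cyr61, Trib1 and Apold1, 30 positive, median 0.37). Over all genes 52.5% of differences across the tissues were positive, and 0.317% of genes passed as higher.

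Fos, a subunit of the AP-1 transcription factor and the usual marker of recently active neurons, was at 4.83, 5.52, 6.55 and 6.74 FPKM after mianserin and 1.68, 1.74, 2.21 and 2.28 after venlafaxine in the NAc (chr12:85473890-85477273). In the PFCx it was at 10.6, 11.7, 12.8 and 13.3 against 5.25, 5.66, 6.12 and 7.01. All mianserin libraries of a tissue lay above all venlafaxine libraries, and the means after venlafaxine (1.98 and 6.01) were close to those after saline (2.44 and 6.17). The difference was 1.21 in the NAc (limma adjusted p = 0.0137, 2.99-fold) and 0.90 in the PFCx (limma adjusted p = 0.00242, 2.01-fold).

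Nr4a1, an orphan nuclear receptor induced by calcium and cyclic AMP, was above the venlafaxine range in every mianserin library of both tissues. After mianserin it was at 8.37, 9.97, 10.1 and 10.9 FPKM in the PFCx and after venlafaxine at 2.91, 3.25, 3.41 and 4.30 (chr15:101266846-101274792; 1.28, limma adjusted p = 0.00106, 2.84-fold). In the NAc it was at 3.75, 4.25, 4.36 and 5.24 against 1.59, 2.13, 2.24 and 2.34 (0.81, limma adjusted p = 0.0137). The saline means, 5.19 in the PFCx and 2.99 in the NAc, lay between those of the drugs, and the comparison of venlafaxine with saline did not pass for Nr4a1 in either tissue (limma adjusted p = 0.213 in the PFCx).

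Cyr61 (also Ccn1), a secreted matrix protein, was at 1.51 ± 0.236 against 0.403 ± 0.130 FPKM in the NAc (0.84, limma adjusted p = 0.00485) and 1.79 ± 0.364 against 0.507 ± 0.0319 in the PFCx (0.88, limma adjusted p = 0.00249), SD with n = 4 libraries. Csrnp1, a nuclear protein induced with AP-1, was at 2.02 against 0.932 (0.65) in the NAc and 2.89 against 1.26 (0.78) in the PFCx, and Apold1, an immediate early gene of blood vessel cells, at 1.05 against 0.405 (0.54) and 1.13 against 0.476 (0.53). These 3 genes passed in both tissues and did not overlap between the drugs.

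Arc, which acts at synapses on AMPA receptor traffic, was called in the PFCx alone. There it was at 11.9, 13.7, 13.8 and 20.5 FPKM after mianserin and 5.36, 5.43, 6.55 and 6.95 after venlafaxine (1.15, limma adjusted p = 0.0251), and in the NAc the libraries overlapped (4.86 ± 0.800 against 3.98 ± 0.690, SD, n = 4; limma adjusted p = 0.729). The difference between the tissues did not pass for Arc. Junb, another AP-1 subunit, was at 11.7 ± 2.84 against 4.07 ± 0.722 in the PFCx (1.30, limma adjusted p = 0.048) and 5.42 against 2.84 in the NAc (0.76, limma adjusted p = 0.0946).

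The zinc finger factors of the EGR family divided. Egr1 (10.2 against 7.47 FPKM in the NAc and 14.6 against 11.6 in the PFCx; 0.36, limma adjusted p = 0.0254), Egr2 (1.41 against 0.664 and 2.44 against 1.35; 0.53, limma adjusted p = 0.00105) and Egr4 (0.42, limma adjusted p = 0.0306) were higher across the tissues. Egr3 gave a limma adjusted p of 0.977. Klf4, a Krüppel-like factor, was at 1.07 against 0.297 and 1.14 against 0.429 (0.62, limma adjusted p = 0.00302). Other activity markers did not pass: Npas4, the neuronal calcium-dependent factor, was above venlafaxine in each PFCx mianserin library (means 2.60 against 1.60) but gave a limma adjusted p of 0.583 across the tissues, and Bdnf, Homer1, Jun, Nr4a2 and Nr4a3 passed in no comparison of the drugs.

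Single libraries moved these counts. The 5 calls of the NAc became 3 without mianserin replicate 4, the 8 of the PFCx became 3 without venlafaxine replicate 2, and the 17 across the tissues became 12 without NAc mianserin replicate 2. In the PFCx the call of Arc was lost in 6 of 12 leave-outs (limma adjusted p up to 0.104), of Junb in 10 (up to 0.162), of Trib1 in 11 (up to 0.163), of Apold1 in 3 (up to 0.0798) and of Csrnp1 in 1 (without venlafaxine replicate 2, 0.0505). In the NAc, Fos lost its call without venlafaxine replicate 2 or 3 (up to 0.0549), Csrnp1 without mianserin replicate 4 or venlafaxine replicate 2 (up to 0.0621) and Nr4a1 without mianserin replicate 4 (0.0529). Across the tissues Egr1, Fosb and Gadd45g each lost theirs in 7 of 24, Egr4 in 10 and Maff in 1. The PFCx calls of Fos, Nr4a1 and Cyr61 held in all.

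**Figure D3:**
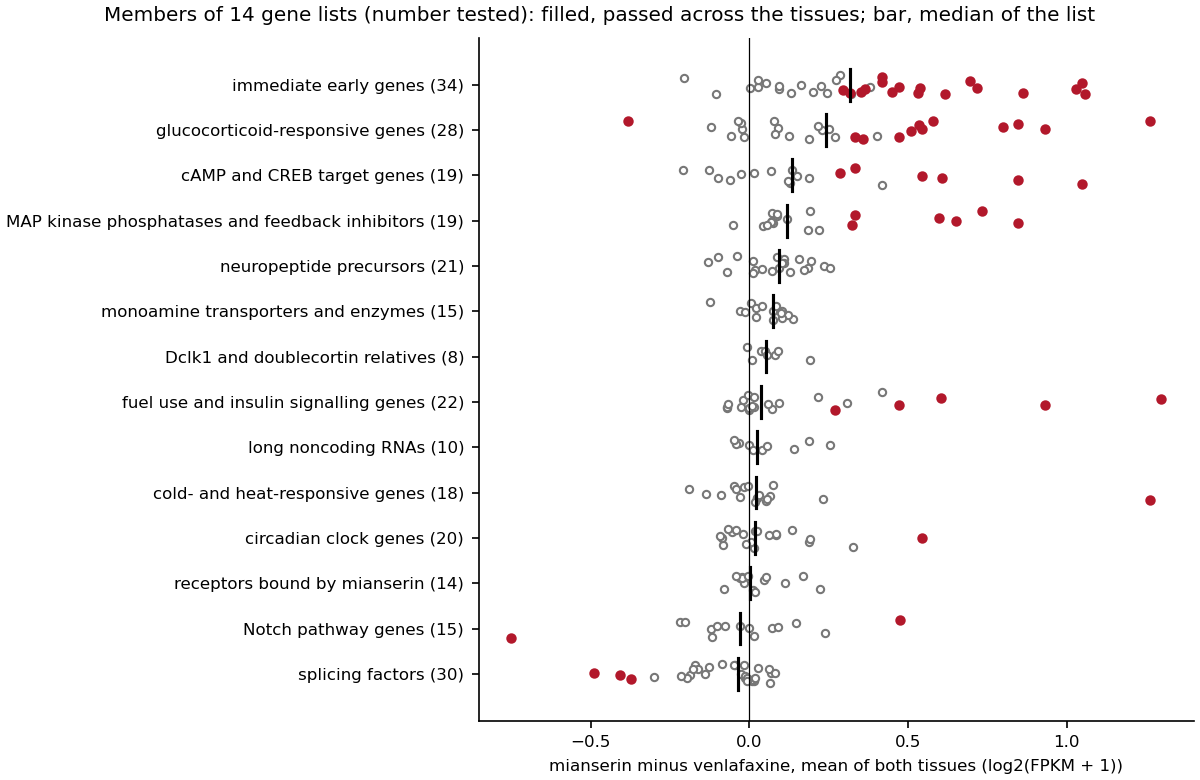
Difference between mianserin and venlafaxine across the tissues (x axis, log2(FPKM + 1), mean of both tissues) for each tested member of 14 gene lists (rows, with the number tested); red points passed, open points did not, and the black bar is the list's median. Calls cluster in the immediate early and glucocorticoid-responsive rows, whose medians are 0.32 and 0.24, and some genes (Sgk1, Dusp1, Nr4a1) stand in more than 1 row.

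Some of the phosphatases that switch MAP kinases off, and of the other feedback inhibitors of the cascade, were higher after mianserin. Of the 19 tested, 6 passed across the tissues (Dusp1, Dusp5, Dusp6, Spry2, Errfi1 and Rasd1), 18 had a positive difference and the median was 0.12. In the PFCx 3 passed (Dusp1, Dusp5 and Dusp6) and in the NAc 0, where 18 of 19 were positive and, over all genes, 2701 (7.19%) had an unadjusted p under 0.05. Of all genes tested, 53.0% were positive in the NAc and 52.5% across the tissues, where 0.317% passed as higher.

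Dusp6, the cytoplasmic phosphatase specific for ERK (chr10:99263231-99267488), was at 12.4, 12.8, 13.2 and 13.9 FPKM after mianserin in the PFCx and at 5.46, 5.68, 6.58 and 7.33 after venlafaxine. The groups were apart by more than the spread within either (0.96, limma adjusted p = 0.00106, 2.09-fold). In the NAc it stood at 5.003 ± 0.623 against 3.24 ± 0.387 (SD, n = 4; 0.50, limma adjusted p = 0.0912).

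Dusp1, a nuclear phosphatase of several MAP kinases that is also in the glucocorticoid and CREB lists (chr17:26505590-26508519), was at 8.46, 8.95, 9.57 and 9.75 FPKM against 2.79, 3.76, 4.45 and 4.70 in the PFCx (1.06, limma adjusted p = 0.0108). In the NAc its means were 4.48 and 2.53 (0.63, limma adjusted p = 0.0912). Dusp5, a nuclear phosphatase of ERK (chr19:53529109-53542431), was at 2.37 ± 0.336 against 0.789 ± 0.223 in the PFCx (0.92, limma adjusted p = 0.00284, 3.00-fold) and at 1.39 against 0.831 in the NAc (limma adjusted p = 0.144). All 3 lay above venlafaxine in every mianserin library of both tissues. Spry2, an inhibitor of receptor tyrosine kinase signalling, differed by 0.32 across the tissues (limma adjusted p = 0.0178), Errfi1, an inhibitor of the EGF receptor, by 0.33 (limma adjusted p = 0.00607), and Rasd1, a Ras-like protein induced by dexamethasone, by 0.60 (limma adjusted p = 0.00343).

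Targets of cyclic AMP and CREB were a smaller group. Of 19 genes, 6 were higher across the tissues (Sik1, Per1, Gem, Dio2, Dusp1 and Nr4a1), 14 were positive and the median was 0.13, and 2 passed in each tissue (Sik1 and Nr4a1 in the NAc, Dusp1 and Nr4a1 in the PFCx). Among all genes tested, 52.5% were positive and 0.317% higher across the tissues. Sik1, a kinase that CREB induces and that restrains it, was at 2.47 against 1.37 FPKM in the NAc (0.55, limma adjusted p = 0.017, lost in 6 of 12 leave-outs) and 2.35 against 1.09 in the PFCx (0.67, limma adjusted p = 0.058). Without NAc mianserin replicate 4 no member passed in the NAc. Dio2, the deiodinase that activates thyroid hormone, differed by 0.33 (limma adjusted p = 0.00238) and Gem, a small GTP-binding protein, by 0.29 (limma adjusted p = 0.0271, lost in 11 of 24 leave-outs) across the tissues.

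The binding sites known for these routes were sought as letters, on both strands, in the promoter windows of the protein-coding genes that passed across the tissues. The cyclic AMP response element, TGACGTCA, was in 7 of the 64 genes called higher that have a window (10.9%; Arl4d, Btg2, Dio2, Dusp1, Errfi1, Maff and Plk2), in 2 of 30 called lower (6.67%; Tra2a and Zfp874b) and in 1.77% of all genes with a window, or 2.49% of the protein-coding genes tested. Its shorter form TGACG, which the full element contains, was in 48.4% of the genes called higher, 40% of those called lower and 25.2% of the protein-coding genes tested. The CArG box, bound by SRF, was in 3.12% of the genes called higher (Dusp5 and Egr2), 3.33% of those called lower (Hes5) and 1.56% of those tested. The EGR site GCGTGGGCG was in 3.12%, 0 and 0.968%, and AGAACA, which the glucocorticoid element contains, in 10.9%, 6.67% and 14.8%. These are counts of letters in a window of fixed length, given as a description.

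The windows below are shown since they belong to members of the early gene, phosphatase and CREB groups or, for Arl4d and Plk2, to other genes called higher. Each is written from 5′ to 3′ along its gene with the element in capitals (RefSeq, GRCm38.p6). They lie at chr17:26508588-26508635, minus strand, for Dusp1, chr1:134079294-134079341, minus, for Btg2, chr12:90739106-90739153, minus, for Dio2, chr4:150854999-150855046, plus, for Errfi1, chr15:79347471-79347518, plus, for Maff, chr11:101665495-101665540, plus, for Arl4d and chr13:110394962-110395009, plus, for Plk2. The elements begin 143, 166, 95, 51, 29, 26 and 62 bases before the RefSeq starts.
Dusp1: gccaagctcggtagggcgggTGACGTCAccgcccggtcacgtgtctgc
Btg2: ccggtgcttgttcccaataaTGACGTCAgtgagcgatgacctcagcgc
Dio2: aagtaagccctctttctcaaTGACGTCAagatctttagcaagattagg
Errfi1: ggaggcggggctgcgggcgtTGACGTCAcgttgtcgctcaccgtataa
Maff: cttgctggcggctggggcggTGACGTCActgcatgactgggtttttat
Arl4d: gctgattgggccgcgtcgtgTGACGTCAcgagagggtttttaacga
Plk2: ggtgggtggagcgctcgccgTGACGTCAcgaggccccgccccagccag
For Egr2 2 annotated starts each have a CArG box that begins 72 bases upstream, at chr10:67537474-67537523 and chr10:67537777-67537826, both on the plus strand. Boxes that begin 73 and 133 bases before other annotated Egr2 starts are not shown separately.
Egr2, upstream start: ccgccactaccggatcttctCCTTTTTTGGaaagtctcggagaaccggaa
Egr2, downstream start: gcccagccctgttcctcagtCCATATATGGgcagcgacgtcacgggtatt

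Other genes higher after mianserin included Tiparp, an ADP-ribosyltransferase (chr3:65528410-65555518), at 4.83 against 2.71 FPKM in the NAc (0.66, limma adjusted p = 0.0352, lost in 8 of 12 leave-outs) and 4.17 against 1.71 in the PFCx (0.93, limma adjusted p = 0.00133, lost in none). Arl4d, a small GTPase of the ARF family whose promoter window is given above, was at 3.69 against 1.35 in the PFCx (0.99, limma adjusted p = 0.0174) and differed by 0.61 in the NAc (limma adjusted p = 0.0968). Its PFCx call was lost without mianserin replicate 3 or venlafaxine replicate 1 or 2 (adjusted p up to 0.0834).

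Among 22 genes of fuel use and insulin signalling, 5 were higher across the tissues (Ucp2, Txnip, Ddit4, Trib1 and Trib2), 14 were positive and the median was 0.04. The shares over all genes tested were 0.317% higher and 52.5% positive. Ucp2, an uncoupling protein of the inner mitochondrial membrane, was at 5.72 against 2.85 FPKM in the NAc (0.80, limma adjusted p = 0.0361) and 5.01 against 3.53 in the PFCx (0.41, limma adjusted p = 0.221), and lost its NAc call in 9 of 12 leave-outs. Trib2, a pseudokinase, differed by 0.27 across the tissues (limma adjusted p = 0.00784). Of 20 circadian clock genes only Per1 passed, at 9.93 against 6.42 in the NAc and 11.3 against 7.72 in the PFCx (0.55 across the tissues, limma adjusted p = 0.0202). Of 18 genes that respond to cold or heat only Sgk1 passed. The cold-induced RNA-binding proteins did not: Cirbp differed by 0.07 (limma adjusted p = 0.885) and Rbm3 by -0.19 (limma adjusted p = 0.521).

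Splicing factors had more negative than positive differences. Of 30, 3 were lower across the tissues (Clk1, Tra2a and Pnisr) and 0 higher, 9 were positive and the median was -0.04. In the NAc 2 were lower (Clk1 and Tra2a, median -0.07) and in the PFCx 0 passed (median -0.04), where 2553 of all genes (6.798%) had an unadjusted p under 0.05. Across the tissues 0.304% of all genes tested passed as lower, 52.5% were positive and the median was 0.0047. Clk1, a kinase that phosphorylates SR splicing proteins (chr1:58410189-58424066), was at 16.1, 16.5, 17.2 and 19.2 FPKM after mianserin and 23.5, 24.4, 25.1 and 27.7 after venlafaxine in the NAc. In the PFCx it was at 11.2, 12.1, 13.9 and 15.9 against 17.1, 18.6, 18.9 and 19.5. Every mianserin library of either tissue was below every venlafaxine library (-0.52 in the NAc, limma adjusted p = 0.0137; -0.46 in the PFCx, limma adjusted p = 0.127; -0.49 across, limma adjusted p = 3.29e-05).

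Tra2a, a splicing activator (chr6:49243924-49264033), was at 7.15 ± 0.456 against 9.97 ± 0.442 FPKM in the NAc (SD, n = 4; -0.43, limma adjusted p = 0.0154) and 7.69 against 10.3 in the PFCx (-0.39, limma adjusted p = 0.114). Pnisr, a nuclear speckle protein (chr4:21847583-21876475), was at 22.1 against 29.1 and 22.2 against 28.5 (-0.37 across the tissues, limma adjusted p = 0.000975). Srek1ip1, which interacts with a splicing regulator, was at 1.96 against 2.93 in the NAc (-0.41, limma adjusted p = 0.0137), with saline at 2.21. In the NAc no splicing factor passed without mianserin replicate 4, Clk1 also lost its call without venlafaxine replicate 2 (adjusted p up to 0.0621), Tra2a in 4 of 12 leave-outs (up to 0.0694) and Srek1ip1 in 3 (up to 0.0567).

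At the level of transcripts, 36 of 87266 passed in the NAc (0.0413%), the PFCx gave 16 (0.0183%) and the joined tissues 398 (0.456%; 157 higher and 241 lower). Retained-intron forms, transcripts annotated as keeping an intron and not translated as the coding forms are, made up 108 of the 241 that were lower. Of the 14754 retained-intron transcripts tested, 0.732% were lower and 0.244% higher, and of the 37948 protein-coding transcripts 0.121% were lower and 0.216% higher. For 106 of the 108, in 101 genes, protein-coding transcripts of the same gene could be summed: the retained-intron forms had a median difference of -0.35 and the coding sums one of 0.02 (59 positive and 47 negative), and the whole gene passed as lower for 5. The library-wide share of retained-intron FPKM overlapped between the drugs (4.52% to 5.48% after mianserin and 4.99% to 5.496% after venlafaxine in the NAc). Isoform values depend on each other through shared reads.

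Srsf5, an SR splicing protein, had forms that went in opposite directions. Its retained-intron transcript ENSMUST00000153056 (chr12:80945532-80950503) was at 5.38, 5.40, 6.19 and 6.46 FPKM after mianserin and 12.5, 14.8, 15.04 and 15.7 after venlafaxine in the NAc, and at 4.28, 4.56, 5.74 and 6.27 against 9.70, 10.9, 11.2 and 11.4 in the PFCx. The groups did not overlap in either tissue (across the tissues -1.06, limma adjusted p = 1.02e-07), and the PFCx call (limma adjusted p = 0.0197) was lost in 5 of 12 leave-outs. The summed coding transcripts of Srsf5 lay the other way, at 20.7 ± 2.37 against 13.7 ± 2.62 in the NAc and 21.3 ± 1.05 against 16.4 ± 0.909 in the PFCx (SD, n = 4), above venlafaxine in every mianserin library. The whole gene therefore hardly differed (31.1 against 32.6 in the NAc; -0.02 across the tissues, limma adjusted p = 0.973).

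Other genes of RNA-binding proteins had lower retained-intron forms as well. ENSMUST00000193611 of Srsf6 (chr2:162931528-162935208) was at 2.00 against 4.71 FPKM in the NAc and 1.79 against 3.17 in the PFCx (-0.76 across the tissues, limma adjusted p = 1.1e-05). The retained-intron transcripts ENSMUST00000204013 of Tra2a (-0.57, limma adjusted p = 1.64e-05) and ENSMUST00000147190 of Cirbp (-0.72, limma adjusted p = 0.0027) were lower too. A form of Ddx5, an RNA helicase, annotated for nonsense-mediated decay (ENSMUST00000133426) was at 27.7 against 35.9 and 14.9 against 20.6 (-0.40, limma adjusted p = 3.7e-05). Pnisr had a lower coding form, ENSMUST00000108229, at 2.72 against 6.11 and 2.69 against 5.599 (-0.89, limma adjusted p = 1.73e-05).

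Not all retained-intron transcripts went down. Of 36 higher ones, in 32 genes, the median was 0.36 and 7 belonged to genes that passed as higher themselves. Sgk1 is among these, with ENSMUST00000141218 at 19.5 against 5.86 FPKM in the NAc and 10.2 against 3.497 in the PFCx (1.47 across the tissues, limma adjusted p = 6.49e-05). For Clk1, 1 retained-intron form was lower (ENSMUST00000129577, -0.54) and another higher (ENSMUST00000135380, 0.59, limma adjusted p = 0.0299), while its coding sum differed by -0.77. Transcript counts within a tissue depended on single libraries more than gene counts did: the 36 of the NAc became 5 to 16 in each of the 12 leave-outs, and in the PFCx no transcript passed without mianserin replicate 3 or venlafaxine replicate 3. The 398 across the tissues became 260 without NAc venlafaxine replicate 3 and lay between 260 and 378 in all 24 leave-outs.

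**Figure D4:**
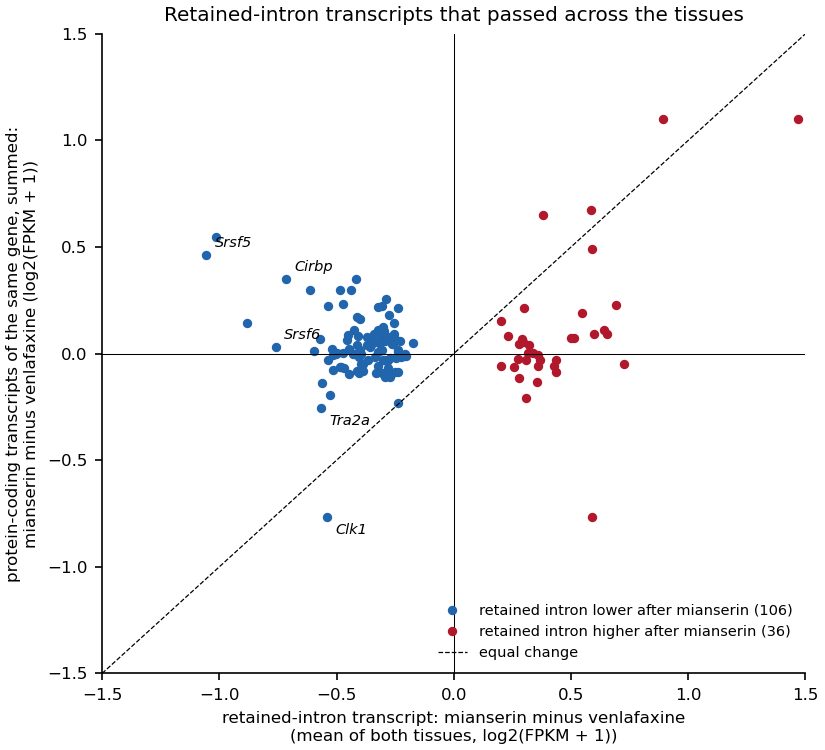
Retained-intron transcripts that passed across the tissues: their difference between mianserin and venlafaxine (x axis, log2(FPKM + 1)) against the difference of the summed protein-coding transcripts of the same gene (y axis, same scale); the dashed line marks equal change. The 106 lower forms lie left of 0 with coding sums spread around 0 (median 0.02), and Srsf5 is far to the left with a positive coding sum.

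Of 15 Notch pathway genes, Hes1 passed as higher and Hes5 as lower across the tissues, 6 were positive and the median was -0.03. Among all genes tested, 0.317% passed as higher, 0.304% as lower and 52.5% were positive. Hes5, a repressor that Notch induces in progenitors and glia (chr4:154960923-154962371), was at 1.4998, 1.70, 2.10 and 2.65 FPKM after mianserin and 3.59, 3.66, 3.99 and 4.74 after venlafaxine in the PFCx. In the NAc it was at 2.12, 2.29, 2.42 and 3.95 against 3.92, 4.53, 5.88 and 6.44, where 1 mianserin library reached into the venlafaxine range. The difference across the tissues was -0.75 (limma adjusted p = 0.000299; -0.75 in each tissue, limma adjusted p = 0.171 and 0.0563). Hes1, a related repressor that also answers to other signals (chr16:30064384-30067796), was at 2.01 against 1.27 and 3.11 against 1.76, with overlap in both tissues (0.48, limma adjusted p = 0.0352, lost in 11 of 24 leave-outs). The other 13 of the 15 genes did not pass.

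Noncoding genes were among the largest differences on the lower side. Gm26945, a long intergenic noncoding RNA (chr12:109640341-109642351), was at 3.87, 4.45, 4.46 and 5.17 FPKM after mianserin and 7.91, 8.82, 8.91 and 8.94 after venlafaxine in the NAc (-0.82, limma adjusted p = 0.00372). In the PFCx its means were 4.37 and 6.94 (-0.57, limma adjusted p = 0.0406, lost in 10 of 12 leave-outs). In the PFCx, Gm14636 was at 1.68 against 3.37 (-0.71, limma adjusted p = 0.00106), Gm26652 at 1.93 against 3.80 (-0.71, limma adjusted p = 0.00824) and Gm37274 at 0.709 against 1.80 (-0.71, limma adjusted p = 0.0187, lost in 7 of 12). Gm37728, a gene of the class TEC, which the annotation keeps for transcripts still without experimental evidence (chr6:31145128-31147419), was higher, at 6.57 against 3.41 in the NAc (0.78, limma adjusted p = 0.00485) and 5.89 against 3.45 in the PFCx (0.63, limma adjusted p = 0.0174, lost in 4 of 12). Whether the counting used strand is not given in the sources used here, so reads of such genes and of genes on the opposite strand may not be separable.

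By annotation class, 2.2% of the 2137 TEC genes tested were lower across the tissues and 0.983% higher, 3.63% of the 248 sense-intronic genes were lower and 0 higher, and for the 19176 protein-coding genes the shares were 0.209% lower and 0.454% higher. Of the 77 TEC and sense-intronic genes that passed, 47 (61.0%) lay within a protein-coding gene on the same strand, against 45.2% of all 2385 tested. Of those 47, 38 were lower after mianserin and 9 higher. The host gene passed in the same direction for 1 of the 38, Gm37893 in Trmt1l (host difference -0.34, limma adjusted p = 0.00447), and the hosts' median difference was -0.01. The share of summed FPKM in TEC genes did not overlap between the drugs: 0.597% to 0.659% after mianserin and 0.664% to 0.735% after venlafaxine in the NAc (0.634% to 0.718% after saline), and 0.587% to 0.696% against 0.698% to 0.774% in the PFCx (0.664% to 0.785% after saline). The part of this library-wide share in the single calls was not tested.

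Dclk1, the doublecortin-like kinase of growing and mature neurons that the study is centred on, gave transcript calls but no gene call. The gene was at 107 ± 5.53 FPKM after mianserin against 90.7 ± 3.88 after venlafaxine in the NAc and 129 ± 11.5 against 116 ± 4.27 in the PFCx (SD, n = 4), a difference of 0.19 across the tissues (95% interval 0.09 to 0.29, limma adjusted p = 0.0669). Its retained-intron transcript ENSMUST00000198757 (chr3:55450973-55480552) was at 8.83, 8.98, 10.3 and 11.6 against 5.78, 6.07, 6.23 and 6.96 in the NAc and at 8.10, 8.40, 8.62 and 9.76 against 5.24, 5.42, 5.84 and 6.82 in the PFCx. All mianserin libraries lay above all venlafaxine libraries in each tissue, and the difference passed across the tissues (0.55, limma adjusted p = 0.000204) but in neither alone (NAc, limma adjusted p = 0.0805; PFCx, 0.222).

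The protein-coding Dclk1 transcript ENSMUST00000167204 (chr3:55242526-55471316) was at 12.2, 12.8, 13.2 and 13.3 FPKM after mianserin and 8.26, 8.59, 8.80 and 8.97 after venlafaxine in the PFCx (0.52, SE 0.06, limma adjusted p = 0.0246). In the NAc its libraries overlapped (4.13 against 3.42), and the PFCx call was lost in 9 of 12 leave-outs (adjusted p up to 0.116). ENSMUST00000199585 was at 12.7 against 7.44 in the NAc without passing (0.69, limma adjusted p = 0.149). None of the other 12 of the 15 Dclk1 transcripts passed in any comparison of the drugs. A pair of TEC genes that lie within Dclk1 were higher across the tissues: Gm42607 (chr3:55483788-55487180) by 0.49 (limma adjusted p = 5.9e-05; 3.12 against 1.88 in the NAc and 2.30 against 1.40 in the PFCx) and Gm42608 (chr3:55517569-55519586) by 0.36 (limma adjusted p = 0.00465). Of Dclk1 and 7 relatives none passed as a gene, and 7 of the 8 had a positive difference (median 0.05), as did 52.5% of all genes tested.

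**Figure D5:**
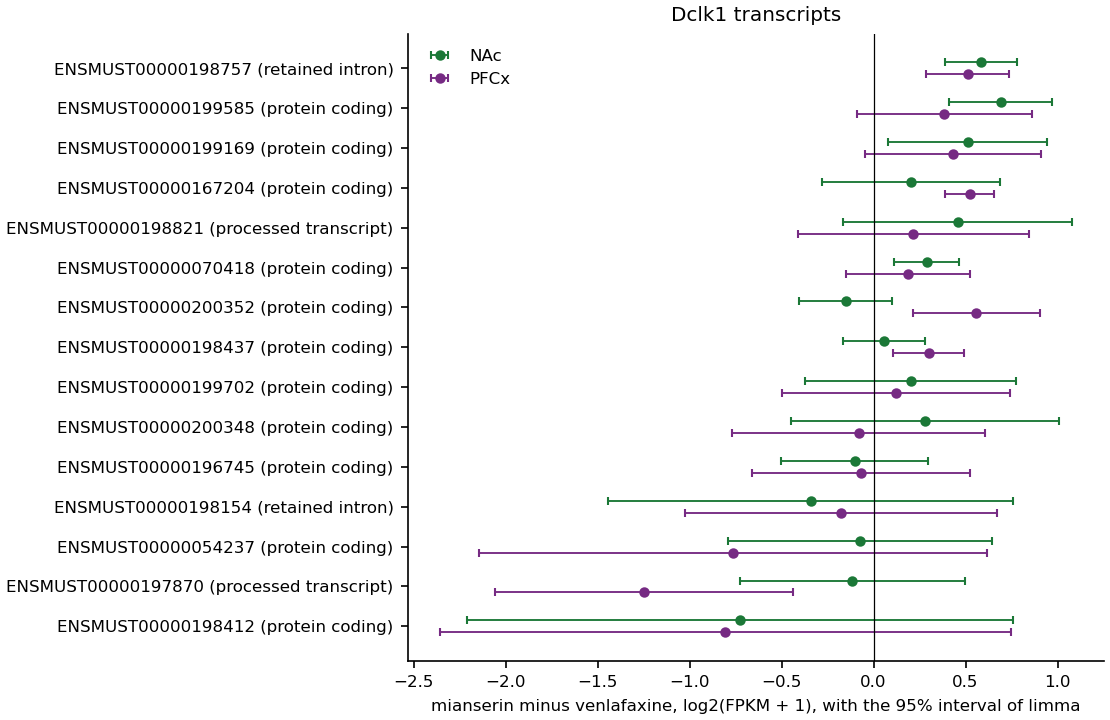
Difference between mianserin and venlafaxine (x axis, log2(FPKM + 1)) for the 15 annotated Dclk1 transcripts (rows, with their annotated type) in the NAc (green) and the PFCx (purple); bars are limma's 95% intervals, unadjusted. The retained-intron form ENSMUST00000198757 lies to the right of 0 in both tissues and ENSMUST00000167204 does so in the PFCx, while several forms have intervals wider than 1.

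Few features differed between the tissues in how the drugs compared. The test of that difference gave 2 genes (0.00533%) and 1 transcript (0.00115%). The transcript is a processed form of Pcsk2, a convertase that cuts prohormones and neuropeptide precursors (ENSMUST00000124751, chr2:143546271-143576734). It was at 3.31, 3.72, 3.80 and 4.02 FPKM after mianserin and 6.26, 6.54, 6.58 and 6.803 after venlafaxine in the PFCx, and at 5.36, 5.58, 5.71 and 5.94 against 3.81, 4.11, 4.26 and 4.29 in the NAc. The libraries were apart in both tissues and in opposite directions, lower after mianserin in the PFCx (-0.68, limma adjusted p = 0.0113) and higher in the NAc (0.38, limma adjusted p = 0.0823). The difference between the tissues was 1.06 (limma adjusted p = 2.61e-06) and held under every alternative tried. Saline was at 3.68 to 4.17 in the NAc and 5.47 to 6.22 in the PFCx, near venlafaxine in the NAc and between the drugs in the PFCx.

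Of the 2 genes, RP23-170C11.3, an unnamed locus on chr6:88738192-88741364, was at 1.99, 2.198, 2.62 and 2.93 FPKM after mianserin and 1.01, 1.03, 1.04 and 1.31 after venlafaxine in the NAc (0.71, limma adjusted p = 0.0133) and overlapped in the PFCx (0.964 against 1.16). The difference between the tissues was 0.84 (limma adjusted p = 0.0333). Ube2j2, a ubiquitin-conjugating enzyme of the endoplasmic reticulum (chr4:155943831-155959604), was at 4.54, 4.69, 5.10 and 5.77 against 6.62, 6.78, 6.90 and 8.08 in the NAc and at 7.67, 7.96, 8.67 and 8.96 against 6.24, 6.76, 7.06 and 7.11 in the PFCx (difference between the tissues -0.68, limma adjusted p = 0.0499). Both gene calls rested on single libraries: RP23-170C11.3 lost its call in 13 of 24 leave-outs (adjusted p up to 0.132) and Ube2j2 in 20 (up to 0.189). The next 8 by adjusted p did not pass, among them the lysozyme gene Lyz2 (0.109) and the melanocortin receptor Mc4r (0.148). No member of any list differed between the tissues.

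The receptors that mianserin binds and the transporters that venlafaxine blocks did not separate the drugs at the level of RNA. None of 14 receptor genes passed (7 positive, median 0.00 across the tissues), nor did any of 15 genes of monoamine transport and metabolism (12 positive, median 0.07) or of 21 neuropeptide precursors (17 positive, median 0.09). For all genes tested 52.5% were positive. Htr2a, the 5-HT2A receptor, was at 4.29 against 4.14 FPKM in the NAc and 4.89 against 4.19 in the PFCx (0.11, 95% interval -0.04 to 0.27). Htr2c was at 17.9 against 19.99 and 3.79 against 3.53 (-0.03, -0.19 to 0.13). Hrh1, the H1 receptor, was at 0.927 against 0.923 and 4.20 against 4.30 (interval -0.22 to 0.17).

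The serotonin transporter gene Slc6a4, transcribed mainly in the brainstem, was at 0.257 against 0.287 FPKM in the NAc and 0.361 against 0.394 in the PFCx (-0.03, interval -0.15 to 0.09), and the noradrenaline transporter gene Slc6a2 differed by 0.01 (-0.06 to 0.07). Penk, the enkephalin precursor of striatal neurons, was at 235 against 213 in the NAc (interval across the tissues -0.30 to 0.52), and Tac1, the substance P precursor, at 49.1 against 45.0. Of 10 long noncoding RNAs none passed as a gene, Malat1 and Meg3 included. A transcript of Neat1, the RNA scaffold of paraspeckles (ENSMUST00000173672, chr19:5824708-5845478), was higher across the tissues (0.35, limma adjusted p = 6.48e-05; 1.54 against 0.906 in the NAc).

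Against saline set II, mianserin gave 32 genes in the NAc (0.0852%; 20 higher and 12 lower) and 167 in the PFCx (0.445%; 73 and 94), and venlafaxine 0 in the NAc (0%) and 3 in the PFCx (0.00799%), all lower (Gm22395, Isy1 and Mir8111, named after their values were seen). For venlafaxine 1893 genes (5.04%) had an unadjusted p under 0.05 in the NAc and 3532 (9.4%) in the PFCx. For mianserin these were 2815 (7.5%) and 4770 (12.7%). These comparisons share the saline libraries and are set side by side without a test between them. The PFCx saline libraries also differed in make-up, with 3.40% to 4.35% of their summed FPKM in small nuclear RNA. That share was 5.87% to 7.50% after mianserin and 4.09% to 7.53% after venlafaxine in the PFCx. The part of this in the counts against saline was not tested. Sgk1 differed from saline by 1.63 after mianserin and 0.27 after venlafaxine in the NAc and by 1.18 and 0.02 in the PFCx.

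Markers of cell types were compared between the drugs as well. None of the marker genes of 10 cell types was at 0 in all 8 libraries of a tissue. Within a tissue, only Olig2 of the 10 oligodendrocyte markers passed, in the NAc. Across the tissues, only Gpr17 of the 5 markers of oligodendrocyte precursors passed. Over all genes tested, 0.0533% passed as higher and 0.0266% as lower in the NAc, and 0.317% and 0.304% across the tissues. Olig2, a factor of the oligodendrocyte lineage (chr16:91225550-91228677), was at 3.45 against 1.93 FPKM in the NAc (0.60, limma adjusted p = 0.0119) and 1.98 against 1.79 in the PFCx, and Gpr17, a receptor of oligodendrocyte precursors, differed by -0.25 across the tissues (limma adjusted p = 0.0269). The Gpr17 call was lost in 9 of 24 leave-outs (limma adjusted p up to 0.070). The summed FPKM of 10 oligodendrocyte markers overlapped between the drugs in each tissue (619.6 to 653 against 604.3 to 651.7 in the NAc). The sum of 10 astrocyte markers was 355.5 to 370.9 after mianserin and 341 to 354.1 after venlafaxine in the NAc, that of 10 microglial markers 48.2 to 59.4 against 39.3 to 48.4 there, and that of 11 endothelial and mural markers 41.0 to 47.9 against 49.1 to 55.0 in the PFCx, where Apold1 was higher. No single marker of these cell types passed, and the part of such shifts in the gene differences was not tested.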

How the data were processed

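RNA of NAc and PFCx pieces was depleted of ribosomal RNA and sequenced on Ion Torrent instruments by the authors, who aligned single-end reads with TopHat2 2.0.1 and Tmap and estimated transcript levels with Cufflinks 2.2.1 and the Ensembl annotation of GRCm38. The deposited table of each library holds FPKM and the read coverage of 112714 annotated transcripts, and no counts. The authors' coverage was used only for depth, dividing it by FPKM for transcripts 2000 bases long or longer whose FPKM reached 5 and taking the median. Treatment and tissue came from the labels.

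FPKM was used per transcript and summed per gene name. Features with a mean FPKM of at least 0.1 were tested as log2(FPKM + 1) with limma 3.58.1 in R 4.3.3 and Benjamini-Hochberg adjustment over all of them, on 12 libraries per tissue (both drugs and saline set II) or the 24 of both tissues. Exact permutation tests went through all 70 splits of 4 against 4 libraries with numpy 2.4.6 (Python 3.11.15). On simulated data with 200 genes changed by 1 on the log2 scale, the NAc fit called 175 of them and 9 others, the PFCx fit 161 and 3, and the fit across the tissues 188 and 12. The changed genes had a mean FPKM of at least 1, and the noise was normal and independent between libraries. Smaller differences, weaker genes and deviations shared between libraries were therefore not covered. Transcript types came from GENCODE vM21, which holds 99.0% of the transcripts, and promoters from RefSeq.

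Named are, among genes past the threshold with groups that do not overlap and a mean FPKM of at least 1, the 10 with the largest difference in each direction and tissue, then the 10 of lowest p in each direction across the tissues and for a difference between tissues, transcripts by a like rule, list members and the Dclk1 transcripts. Predicted genes followed the same rule. Lists and comparisons were chosen with earlier results of these data known. Alternatives were a pseudocount of 0.1, other filters, other variance models, other sets of libraries, rescaling, a replicate block, a threshold of 0.001 and leaving out each library. Reads, other drugs and saline set I (outside 1 alternative) were not analysed here. Some results of single items are not reported here.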

Additional observations from a re-analysis of the deposited data

Results flagged for a closer look

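Among 378 groups of 4 libraries, 29 held a library whose gap to its nearest neighbour took up more of the group's range than Dixon's test allows at the 95% level, and chance gives about 1 group in 20. Of these, 8 came from PFCx mianserin replicate 1 and 4 from PFCx venlafaxine replicate 4.

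In the PFCx after mianserin, replicate 1 was highest for Egr4 (7.54 FPKM), Fosb (3.76), Gadd45g (2.94), Gpr17 (3.11), the Srsf6 transcript ENSMUST00000193611 (2.09) and the Dclk1 transcript ENSMUST00000200348 (13.9, with the others at 6.23, 6.25 and 6.34), and lowest for Gm12940 (6.59) and Srek1ip1 (1.87). Other PFCx mianserin libraries were lowest for Hes1 (2.21), Nfkbia (4.00), Per1 (9.48) and Spry2 (7.29), and 1 was highest for Tiparp (4.66). Without this replicate 1 Egr4 and Gadd45g no longer passed across the tissues, while Fosb and Gpr17 still did.

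In the PFCx after venlafaxine, replicate 4 was lowest for Egr2 (1.04) and Gm37633 (2.02) and highest for Nln (4.38) and the Sgk1 transcript ENSMUST00000135195 (2.29), and replicate 3 was highest for Spry2 (6.65).

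In the NAc after mianserin, single libraries were highest for Apold1 (1.26), Egr1 (11.7), Gm37274 (1.52), Hes5 (3.95) and the Stard4 transcript ENSMUST00000025236 (3.48), and lowest for Sik1 (2.00) and Tiparp (4.20). After venlafaxine, 1 library was lowest for Gm26945 (7.91), and others were highest for RP23-170C11.3 (1.31) and for the Sgk1 transcripts ENSMUST00000020145 (5.27) and ENSMUST00000124350 (4.13).

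The difference between the drugs itself differed between the tissues, NAc minus PFCx on the log2 scale, for RP23-170C11.3 (0.84, limma adjusted p = 0.0333), Ube2j2 (-0.68, limma adjusted p = 0.0499) and the Pcsk2 transcript ENSMUST00000124751 (1.06, limma adjusted p = 2.61e-06).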

How the results depend on the processing

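Each count below is set against 30 genes in the NAc, 26 in the PFCx, 233 across the tissues and 2 differing between them, and 36, 16, 398 and 1 transcripts. With a pseudocount of 0.1 they were 19, 16, 183 and 0 genes and 11, 1, 190 and 1 transcripts. With only the libraries of both drugs they were 6, 15, 151 and 0 genes and 0, 0, 201 and 1 transcripts, and with all libraries of the tissue 92, 101, 301 and 6 genes and 111, 119, 532 and 3 transcripts. At an adjusted p under 0.001 they were 1, 0, 47 and 0 genes and 0, 0, 58 and 1 transcripts. Without limma's moderation 16 genes passed in the PFCx and 0 differed between tissues, and with a mean-variance trend 0 genes differed and 18 and 9 transcripts passed in the NAc and PFCx. Rescaling to the same 75th percentile left 1 gene that differed between tissues. With no filter 31 transcripts passed in the PFCx, and with a mean FPKM of at least 1 26 passed there and 2 differed. The causes were not tested.

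Leaving out each library gave 13 to 36 genes in the NAc, 12 to 33 in the PFCx, 183 to 233 across the tissues and 0 to 5 differing, and 5 to 16, 0 to 23, 260 to 378 and 1 to 6 transcripts. A replicate block, with the numbers of the labels, gave 19, 20, 242 and 0 genes and 3, 1, 279 and 1 transcripts. In the NAc the deviations of 11 of 12 same-numbered pairs correlated above 0.1 (mean r 0.195, lowest 0.0687), against 4 of 36 pairs with different numbers (mean -0.0642), and in the PFCx 6 of 12 did (mean 0.116, lowest -0.147) against 12 of 36. The labels give the number no meaning, so the main fits did not take the numbers as pairs. Deviations shared by same-numbered libraries, as in most NAc pairs, are therefore not modelled in them. Named genes without a call under the block were Apold1, Cebpd, Clk1, Gm12940, Gm43486, Sik1, Srek1ip1, Tiparp, Tra2a and Ucp2 in the NAc, Arl4d, Fxyd5, Gm26945, Gm37274, Gm37633 and Gm38299 in the PFCx, Hes1 and RP23-170C11.3 across the tissues, and RP23-170C11.3 and Ube2j2 between them. The Srsf5 transcript ENSMUST00000153056 had none within either tissue, and the Pcsk2 and Dclk1 transcripts ENSMUST00000124751 and ENSMUST00000167204 and Sgk1 ENSMUST00000020145 had none in the PFCx. Of 3084 values of called named genes under alternatives 400 lost the threshold and 0 reversed, and of 2983 for transcripts 690 and 0. Depth was known only in aligned bases, so the counting error of genes at low FPKM was not estimated.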

Other observations

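Other transcripts that separated the drugs belong, except for that of Adamts1, to genes that did not pass as a whole. Cspg5, a chondroitin sulfate proteoglycan of the brain, had a lower coding form after mianserin (ENSMUST00000197850, 1.59 against 2.22 FPKM in the NAc and 1.62 against 2.74 in the PFCx; -0.41 across the tissues, limma adjusted p = 2.08e-05). A retained-intron form of Gpi1, a glycolytic enzyme, was lower as well (ENSMUST00000135243, 3.99 against 7.41 in the NAc and 3.92 against 5.78 in the PFCx; -0.61, limma adjusted p = 0.000172), as was that of Tia1, an RNA-binding protein of stress granules (ENSMUST00000136387, 3.67 against 5.38 and 2.75 against 4.52; -0.50, limma adjusted p = 1.64e-05). Higher after mianserin were retained-intron forms of Mical2, an actin oxidase (ENSMUST00000150428, 1.87 against 1.28 in the NAc and 6.56 against 3.66 in the PFCx; 0.51, limma adjusted p = 6.8e-05), and of Trim2, a neuronal ubiquitin ligase (ENSMUST00000137596, 2.65 against 1.65 and 2.69 against 1.76; 0.44, limma adjusted p = 0.000722). A coding form of Stard4, a cholesterol carrier, was higher in every mianserin library of both tissues (ENSMUST00000025236, 2.94 against 2.04 and 3.58 against 2.94; 0.29, limma adjusted p = 0.00326). The summed coding transcripts of Stard4 overlapped between the drugs in both tissues (means 3.31 against 2.53 in the NAc and 4.30 against 3.46 in the PFCx). A coding form of Adamts1, a secreted protease, stood at 0.865 against 0.436 in the NAc and 1.20 against 0.478 in the PFCx (0.48, limma adjusted p = 6.49e-05). Adamts1 passed as higher across the tissues as a gene too.

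In the PFCx, Fxyd5, a regulator of the sodium pump (chr7:31032722-31042481), was at 3.39 against 6.32 FPKM (-0.73, limma adjusted p = 0.0279, lost in 6 of 12 leave-outs), and in the NAc at 1.83 against 1.94. Gm42888 was lower in the NAc (1.07 against 1.93; -0.51, limma adjusted p = 0.00577) and at 0.352 against 0.347 in the PFCx, and its difference between the tissues did not pass (limma adjusted p = 0.109).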
